A study of Mus musculus with 6 samples.

Results

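The genes described here encode the feedback regulators of the ERK pathway: the dual-specificity MAP kinase phosphatases Dusp1, Dusp2, Dusp4, Dusp5, Dusp6 and Dusp10, and the Sprouty family proteins Spry1, Spry2, Spred1 and Spred2. They were chosen by symbol from the normalized count table, which listed all 10 among 41255 genes. Of the 10, 9 passed the expression filter and were among the 11550 genes tested, while Spry1 had at most 2 reads in any library. Their mRNA was compared between Ba/F3 cells carrying WT human RPL10 and Ba/F3 cells carrying RPL10 R98S, a mutation of the large ribosomal subunit found in T-cell leukemia.

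Clones 28, 29 and 36 formed the WT group, the R98S group comprised clones 11, 13 and 35, and each clone gave 1 mRNA library. Ba/F3 is a mouse lymphoid line that needs interleukin-3, a cytokine that signals through RAS and ERK among other routes. Human RPL10 cDNA had been delivered by retrovirus, in its WT or R98S form. In all 6 clones the mouse Rpl10 gene was also targeted by a short hairpin RNA, and all cells received 100 µg/ml cycloheximide, an inhibitor of translation, during the last 5 min before RNA was isolated. Each culture grew from a single cell of the same parental line, so that the 3 replicates of a group are clones and not animals or donors.

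ERK is switched on when RAS activates a chain of kinases, RAF, MEK and ERK, each of which phosphorylates the next. Many of the genes that ERK induces encode proteins that switch the pathway off again. Dusp phosphatases remove the phosphates from the activation loop of ERK or of its relatives p38 and JNK, whereas Sprouty and Spred proteins act higher up, between the receptor and RAF. The mRNAs of many of these genes are short-lived, and the level of Dusp6 and the Sprouty genes is often used as a readout of ERK output.

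Libraries held between 21786776 and 24204991 reads assigned to genes, and a level of 3 reads, between 2.78 and 3.22 normalized counts, was the floor for telling expression from 0. Rpl10 itself, where reads of the human transgene may also have been counted, was at 2637 ± 655 normalized counts in WT and at 2509 ± 580 in R98S clones (SD, n = 3, limma adjusted p = 0.871). Of 9 markers of pro-B cells, the type this line is usually assigned to, Cd79a had between 996.4 and 1507 normalized counts and Cd79b between 142.9 and 705.2, while Pax5, Vpreb1, Igll1 and Rag1 were at or under 3 reads in every library. The summed level of 6 mast cell and basophil markers was between 25043 and 29766 in WT and between 13887 and 17409 in R98S clones, nearly all of it Gata2, with Kit and Fcer1a at or near 0. The means of Cpa3 (71.5 in WT, 192.5 in R98S) and Mcpt8 (23.2 and 37.6) were higher in R98S clones. That of Ms4a2 (105.5 and 73.0) was lower, and the clones of the groups overlapped for all of these genes. The summed level was between 1293 and 1404 in WT and between 1642 and 1961 in R98S clones for pro-B cell markers, and between 21.5 and 77.1 and between 50.01 and 97.6 for 7 T cell markers. It was between 54.8 and 324.6 in WT and between 7.51 and 14.3 in R98S clones for 4 monocyte markers, between 208.5 and 686.5 and between 371.9 and 587.3 for 5 erythroid markers, and between 8.19 and 20.4 and between 9.25 and 19.4 for 4 fibroblast markers, with Dcn at 0. The part of these marker levels in the results was not tested. For 6 of the 9 feedback genes tested, WT clone 36 was the highest WT clone and R98S clone 13 also the highest R98S clone. The counts of called genes are therefore given with and without both.

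Promoters of 9 of the 10 genes were found in the RefSeq table of GRCm38.p6, each covering the 250 bases before the transcription start and the 50 after it. They were searched on both strands for TGACGTCA, the cyclic AMP response element (CRE), for the AP-1 site TGANTCA, for the STAT site TTCNNNGAA, for the ETS site CCGGAAGT, and for the CArG box bound by serum response factor. The promoters of 4 genes are shown from 5′ to 3′ on the strand of the gene, with matches in capitals. Dusp5 lies on the plus strand with its promoter at chr19:53528895-53529194, Dusp6 on the plus strand with its promoter at chr10:99262981-99263280, Dusp1 on the minus strand with its promoter at chr17:26508423-26508722, and Spry2 on the minus strand with its promoter at chr14:105896770-105897069. Dusp5, Dusp6 and Spry2 are shown because every R98S clone had less of their mRNA than any WT clone, and Dusp1 is shown because its groups overlapped.
Dusp5: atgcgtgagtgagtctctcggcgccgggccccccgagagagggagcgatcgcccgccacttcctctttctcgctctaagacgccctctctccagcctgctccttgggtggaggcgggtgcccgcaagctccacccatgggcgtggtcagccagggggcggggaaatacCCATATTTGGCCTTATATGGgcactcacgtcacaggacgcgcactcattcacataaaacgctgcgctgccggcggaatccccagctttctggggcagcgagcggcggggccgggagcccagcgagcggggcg
Dusp6: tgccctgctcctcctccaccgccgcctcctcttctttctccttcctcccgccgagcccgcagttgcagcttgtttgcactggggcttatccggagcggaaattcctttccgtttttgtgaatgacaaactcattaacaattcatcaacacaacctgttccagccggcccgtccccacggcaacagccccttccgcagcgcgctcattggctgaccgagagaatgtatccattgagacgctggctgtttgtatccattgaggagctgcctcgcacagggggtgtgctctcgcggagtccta
Dusp1: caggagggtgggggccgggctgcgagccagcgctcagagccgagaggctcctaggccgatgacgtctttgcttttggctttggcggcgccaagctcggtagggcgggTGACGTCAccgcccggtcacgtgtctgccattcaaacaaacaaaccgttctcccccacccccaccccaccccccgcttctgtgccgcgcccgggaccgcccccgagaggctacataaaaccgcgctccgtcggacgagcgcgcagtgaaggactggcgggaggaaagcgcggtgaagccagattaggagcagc
Spry2: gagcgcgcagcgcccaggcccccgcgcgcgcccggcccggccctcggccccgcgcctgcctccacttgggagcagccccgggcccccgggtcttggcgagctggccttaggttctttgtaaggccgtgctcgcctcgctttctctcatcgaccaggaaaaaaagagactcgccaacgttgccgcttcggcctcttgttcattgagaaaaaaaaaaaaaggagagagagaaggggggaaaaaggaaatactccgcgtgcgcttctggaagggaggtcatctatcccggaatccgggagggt
The Dusp5 promoter held 2 CArG boxes end to end, from -82 to -73 and from -72 to -63, counted so that the last base before the start is -1. A CArG box occurred in 1.63% of 32851 promoters of the same length. The Dusp1 promoter held a CRE from -143 to -136, a match found in 1.79% of all promoters. No match to any of the 5 motifs lay in these windows of Dusp6, Spry2, Dusp2, Dusp10, Spry1, Spred1 or Spred2, while the AP-1 site occurred in 7.81%, the STAT site in 8.3% and the ETS site in 3.89% of all promoters. GC content was 66.7% for Dusp5, 57.3% for Dusp6, 67% for Dusp1 and 62.7% for Spry2, against a median of 52.7% over all promoters.

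Dusp6, Dusp5 and Dusp4, phosphatase genes for which ERK is a main substrate, fell in R98S cells to 28.1%, 33.7% and 40.9% of their mean WT level, with no overlap between the clones of the groups. Spry2 and Spred1 fell to 56.8% and 68% of WT. Dusp1, Dusp2, Dusp10 and Spred2 did not pass the test. In all, 5 of the 9 tested genes were called lower, by limma on log2(normalized count + 1) with an adjusted p under 0.1, while 13.1% of all genes tested were called lower. None was called higher by limma, against 10.7% of all genes tested, and none had a higher level at an unadjusted p under 0.05, where 0 were also called by edgeR and 0 by DESeq2. With WT clone 36 and R98S clone 13 both left out, 6 of the 9 were called lower and 1 higher. That fit called 17.7% of all its tested genes lower and 13.8% higher. The median log2 fold change was -0.54 over the 9 genes and -0.011 over all genes tested. Groups did not overlap, with R98S lower, for 5 of the 9 genes and for 19.2% of all genes tested.

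**Figure D1:**
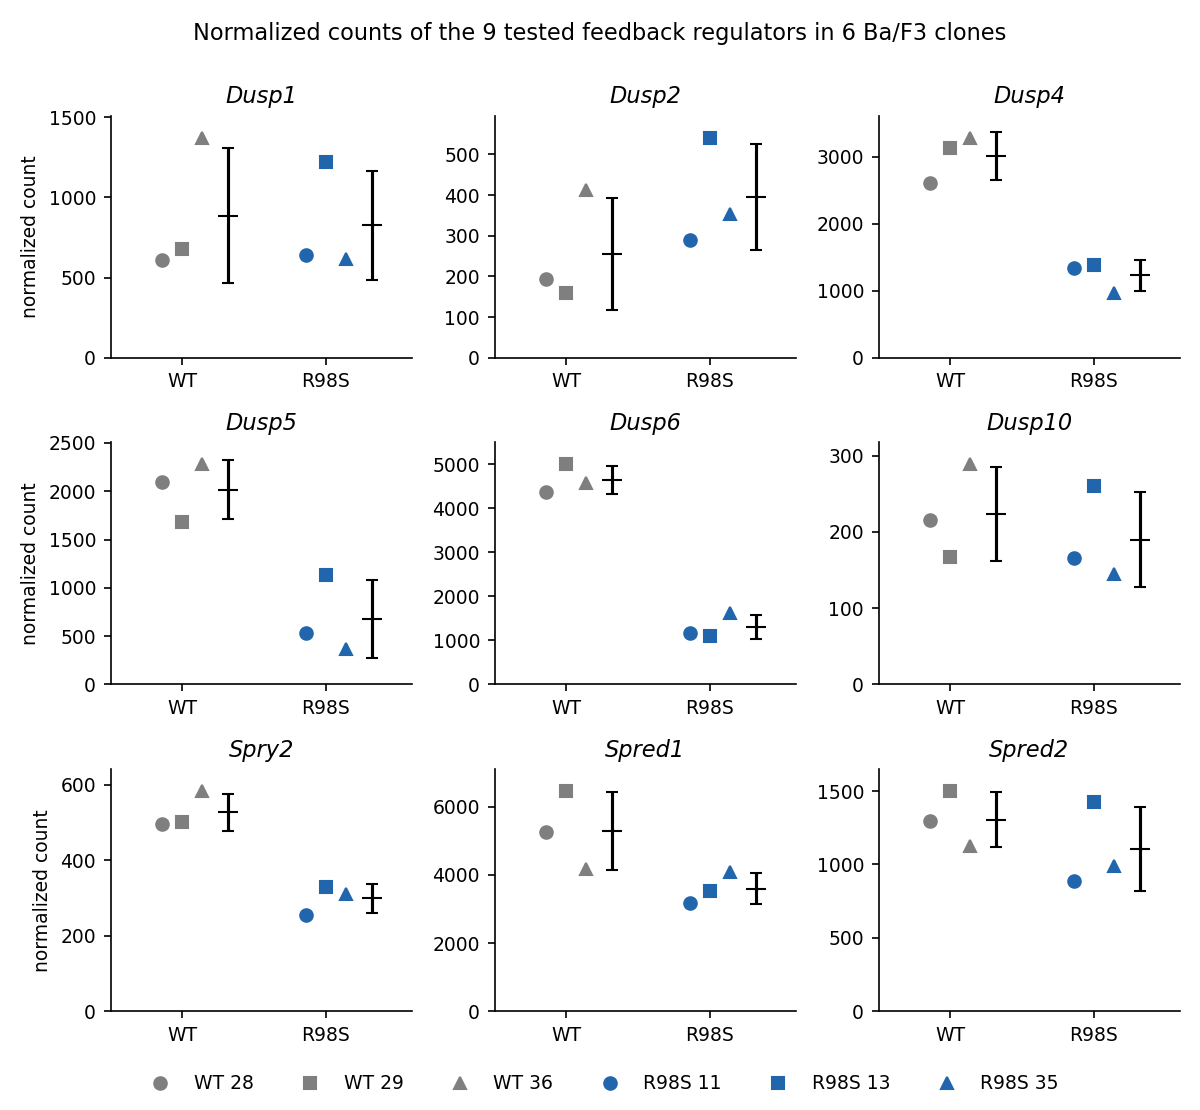
Normalized counts (vertical axes, each starting at 0) of the 9 tested genes in 3 WT clones (grey) and 3 R98S clones (blue), with the mean and SD of each group as black bars. Every R98S clone lay below every WT clone for Dusp4, Dusp5, Dusp6, Spry2 and Spred1, and WT clone 36 and R98S clone 13 stood above the others for Dusp1.

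Dusp6 (chromosome 10, 99263231 to 99267489, plus strand, GRCm38) encodes the cytoplasmic phosphatase with the strongest preference for ERK. Its normalized read count was 4362 in clone 28, 4998 in clone 29 and 4585 in clone 36 of the WT group. It was 1179 in clone 11, 1109 in clone 13 and 1627 in clone 35 of the R98S group, the order in which values are given throughout. The lowest WT clone thus stood well above the highest R98S clone, and the spread within each group was small beside the difference. Dusp6 fell 3.56-fold, from 4649 ± 323 to 1305 ± 281 (SD, n = 3), a change of -1.85 on the log2 scale (SE 0.15, 95% confidence interval -2.21 to -1.49, limma adjusted p = 0.000401). In bulk RNA, fewer cells that express a gene and less of its mRNA per cell cannot be told apart.

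Dusp4 (chromosome 8, 34807297 to 34819894, plus strand) encodes a nuclear phosphatase that acts on ERK and JNK. WT clones had 2610.2, 3139 and 3287 normalized counts and R98S clones 1346, 1383 and 964.9. The R98S clones were all well below the lowest WT clone. Dusp4 fell from 3012 ± 356 to 1231 ± 231 (SD, n = 3), a change of -1.30 on the log2 scale (SE 0.16, 95% confidence interval -1.68 to -0.92, limma adjusted p = 0.00324). The median over the 30 tested genes nearest to Dusp4 was -0.29 on the log2 scale, and with the median deviation of these neighbours subtracted in each library the change of Dusp4 was -0.97 (limma adjusted p = 0.00853).

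Dusp5 (chromosome 19, 53529109 to 53542431, plus strand) encodes a nuclear phosphatase that binds and inactivates ERK. Its normalized counts were 2094, 1680 and 2277 in WT and 535.7, 1137 and 368.2 in R98S clones. R98S clone 13 lay nearest to the WT range but still below its lowest clone. Dusp5 fell from 2017 ± 306 to 680.3 ± 404 (SD, n = 3), a change of -1.72 on the log2 scale (SE 0.36, 95% confidence interval -2.54 to -0.89, limma adjusted p = 0.0196). The log2 SD of Dusp5 was 0.23 between WT and 0.83 between R98S clones, against medians of 0.16 and 0.20 over all genes tested. Dusp5 shares 547 exon bases with an antisense gene, AC137853.2, and whether the counting used the strand of the reads is not given in the sources used here.

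Dusp7, a close relative of Dusp6 that also resides in the cytoplasm and prefers ERK, was read beside these genes. WT clones had 859.2, 797.4 and 710.5 normalized counts and R98S clones 431.6, 403.1 and 491.3. It fell from 789 ± 74.7 to 442 ± 45 (SD, n = 3), a change of -0.84 on the log2 scale (SE 0.14, limma adjusted p = 0.00923). The call was kept when any of the 6 clones was left out. Dusp9, another ERK-selective phosphatase gene, had at most 1 read per library.

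Between WT clones the log2 SD was 0.64 for Dusp1, 0.73 for Dusp2 and 0.39 for Dusp10, against 0.10 for Dusp6, 0.18 for Dusp4 and 0.23 for Dusp5. Dusp1 (chromosome 17, 26505590 to 26562128, minus strand), which acts on p38 and JNK as well as ERK, had 608.3, 677 and 1373 normalized counts in WT and 640.8, 1219.6 and 618 in R98S clones. The groups overlapped, and 1 clone of each group stood above the other clones. The log2 fold change was -0.076 (SE 0.36, 95% confidence interval -0.89 to 0.74, limma adjusted p = 0.907), an interval that leaves room for a change of either sign.

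Dusp2 (chromosome 2, 127336159 to 127338376, plus strand) encodes a nuclear phosphatase of activated lymphoid cells. It had 193.5, 158 and 413.3 normalized counts in WT and 289.9, 540.9 and 352.5 in R98S clones. WT clone 36 lay above 2 of the R98S clones. The log2 fold change was 0.71 (SE 0.37, 95% confidence interval -0.15 to 1.56, limma adjusted p = 0.232), the sole positive value among the 9 genes. Without WT clone 36 it was 1.12 (limma adjusted p = 0.0445), and without both WT clone 36 and R98S clone 13 it was 0.87 (limma adjusted p = 0.037).

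Dusp10 (chromosome 1, 184013302 to 184075636, plus strand) encodes a phosphatase that prefers p38 and JNK over ERK. Normalized counts were 215, 166.6 and 288.2 in WT and 165.1, 260.3 and 144.3 in R98S clones. The ranges of the groups overlapped. The log2 fold change was -0.24 (SE 0.28, 95% confidence interval -0.89 to 0.41, limma adjusted p = 0.591). Dusp16, another phosphatase of JNK and p38, had 1128, 1627 and 654.5 normalized counts in WT and 869.7, 1206 and 786.4 in R98S clones (log2 fold change -0.18, limma adjusted p = 0.729). Without WT clone 36 and R98S clone 13 the value of Dusp16 was -0.71 (limma adjusted p = 0.0579). Dusp8, which acts on JNK and p38, had at most 3 reads per library.

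Spry2 (chromosome 14, 105891947 to 105896819, minus strand) encodes the Sprouty protein that is induced by and restrains growth factor signalling through RAS. Its normalized counts were 495.6, 501.9 and 582.4 in WT and 255.2, 329.7 and 311.8 in R98S clones. Both groups were tight and lay apart from each other. Spry2 fell from 526.6 ± 48.4 to 298.9 ± 38.9 (SD, n = 3), a change of -0.82 on the log2 scale (SE 0.16, 95% confidence interval -1.18 to -0.46, limma adjusted p = 0.0146). The median over its 30 nearest tested genes was 0.22 on the log2 scale, and relative to them Spry2 changed by -1.02 (limma adjusted p = 0.017).

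The other Sprouty genes gave little signal. Spry1 (chromosome 3, 37639947 to 37644598, plus strand) had 0, 0 and 2 reads in WT and 1, 2 and 1 in R98S clones, all under the floor, so that no difference was detectable at this depth. Spry3 was listed at 0 in every library. Spry4 had 88.1, 94.6 and 76.1 normalized counts in WT and 94.8, 141.9 and 101.8 in R98S clones. All R98S values of Spry4 were above the WT values, as for 18.1% of all genes tested, but the log2 fold change of 0.37 did not pass the test (SE 0.23, limma adjusted p = 0.314).

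Spred proteins bring neurofibromin, a GTPase activator of RAS, to the membrane. Spred1 (chromosome 2, 117121374 to 117182279, plus strand) had 5263, 6455 and 4163 normalized counts in WT and 3169, 3533 and 4089 in R98S clones. The groups were separated by the narrow gap between WT clone 36 and R98S clone 35. Spred1 fell from 5294 ± 1146 to 3597 ± 463 (SD, n = 3), a change of -0.54 on the log2 scale (SE 0.17, 95% confidence interval -0.94 to -0.15, limma adjusted p = 0.0689). The call was lost without WT clone 28 (limma adjusted p = 0.172), WT clone 29 (0.197), R98S clone 11 (0.2) or R98S clone 13 (0.116), and without an intensity trend in the fit (0.122). The log2 fold change was between -0.70 and -0.39 in these and the other alternatives.

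Spred2 (chromosome 11, 19924375 to 20024026, plus strand) had 1293, 1498 and 1123 normalized counts in WT and 890.4, 1427 and 992.7 in R98S clones. Of the R98S clones, clone 13 alone lay within the WT range. The log2 fold change was -0.26 (SE 0.19, 95% confidence interval -0.71 to 0.18, limma adjusted p = 0.39), and without R98S clone 13 it was -0.46 (limma adjusted p = 0.0778). Spred3, the third member of the family, had 447.5, 520.1 and 320.2 normalized counts in WT and 243.9, 269.4 and 181.3 in R98S clones. It fell by 0.88 on the log2 scale (SE 0.23, limma adjusted p = 0.0393), a call that was lost without WT clone 28 (0.128), WT clone 29 (0.13) or R98S clone 35 (0.106).

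**Figure D2:**
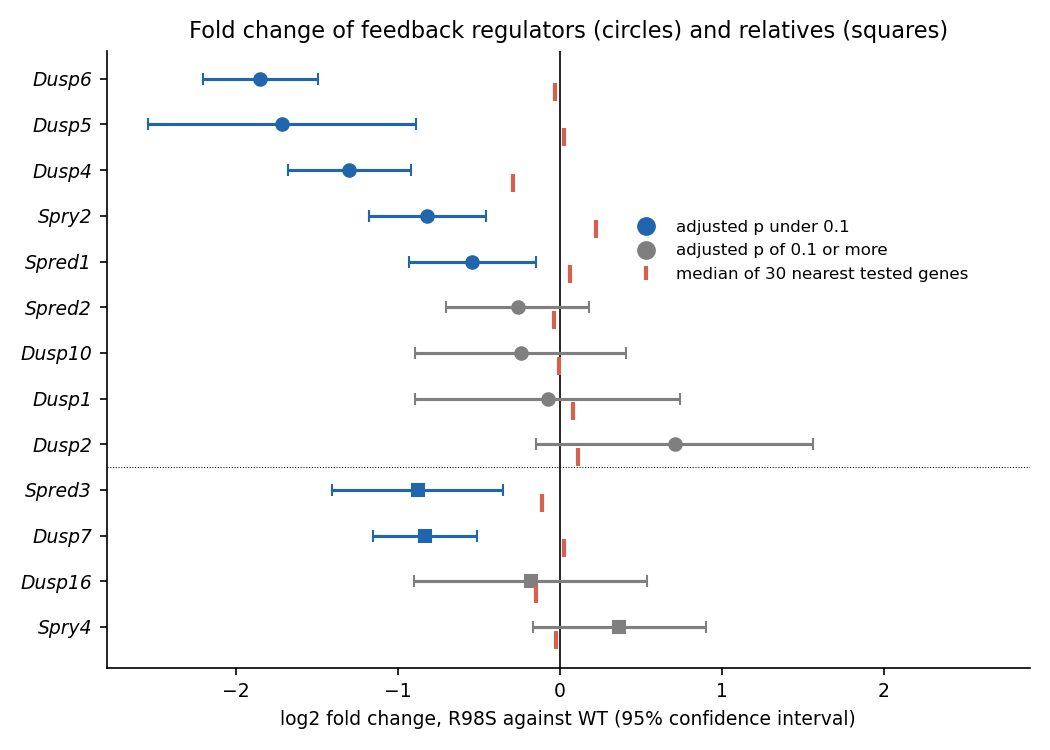
Log2 fold change of R98S against WT cells (horizontal axis) with its 95% confidence interval for the 9 tested feedback regulators (circles) and 4 relatives (squares), in blue where the limma adjusted p was under 0.1. Red ticks mark the median log2 fold change of the 30 nearest tested genes, which lay between -0.29 for Dusp4 and 0.22 for Spry2, while Dusp6, Dusp5 and Dusp4 lay at -1.85, -1.72 and -1.30.

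With both WT clone 36 and R98S clone 13 left out, 6 of the 9 genes were called lower by limma, among 17.7% of all genes tested in that fit, and Dusp2 was called higher, among 13.8%. Dusp6 was then at -1.75 (limma adjusted p = 0.00695), Dusp5 at -2.08 (0.00762), Dusp4 at -1.33 (0.0137), Spry2 at -0.82 (0.0261), Spred1 at -0.70 (0.0427) and Spred2 at -0.57 (0.0379). This fit had 2 clones per group, and it was chosen after the values of these clones had been seen.

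Levels of different genes were compared as normalized counts per kilobase of annotated exon. In WT cells Dusp6 had the highest level per kilobase, 1662 ± 115, followed by Dusp4 with 1099 ± 130, and the clones of these genes did not overlap. Dusp5 (815.5 ± 124) and Spred1 (780.4 ± 169) came next and overlapped each other. Dusp1 (373.4 ± 178), Spred2 (293.3 ± 42.2) and Spry2 (252.3 ± 23.2) also overlapped, followed by Dusp2 (157.7 ± 85.5) and Dusp10 (79.97 ± 21.9), whose clones overlapped too (SD, n = 3 throughout). Dusp2 in WT clone 36 (255.6) lay within the WT ranges of Spry2 and Spred2. In R98S cells Spred1 had the highest mean level per kilobase (530.3 ± 68.3), but its clones overlapped those of Dusp6 (466.7 ± 100) and Dusp4 (449.4 ± 84.5). Dusp1 (348.1 ± 144), Dusp5 (275.1 ± 163), Spred2 (248 ± 64) and Dusp2 (243.9 ± 80.8) overlapped in R98S cells, with Spry2 (143.2 ± 18.6) and Dusp10 (68.02 ± 22.1) at the lower end. In R98S clone 13, Dusp1 (514) and Dusp5 (459.8) lay within the R98S range of Dusp6. In R98S clone 35, Dusp5 (148.9) lay within that of Spry2.

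The summed level per kilobase of the 6 Dusp genes was 3812, 4055 and 4697 in WT and 1638, 2303 and 1613 in R98S clones. The R98S mean was 44.2% of the WT mean (1851 ± 391 against 4188 ± 457, SD, n = 3), with no overlap. Dusp6 supplied between 34.9% and 44.1% of this sum in WT clones and between 17.2% and 36.1% in R98S clones. Dusp1 and Dusp2, which were not called in the fit of all 6 clones, made up larger parts of the smaller R98S sum. The share of Dusp1 was between 6.72% and 12.3% in WT and between 16.1% and 22.3% in R98S clones. That of Dusp2 was between 2.41% and 5.44% in WT and between 10.9% and 14.5% in R98S clones. The sum of the Spry and Spred genes was 1304, 1529 and 1146 per kilobase in WT and 789.9, 1000.2 and 975.6 in R98S clones, so that the R98S mean was 69.5% of the WT mean. No test was run on these sums and shares.

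**Figure D3:**
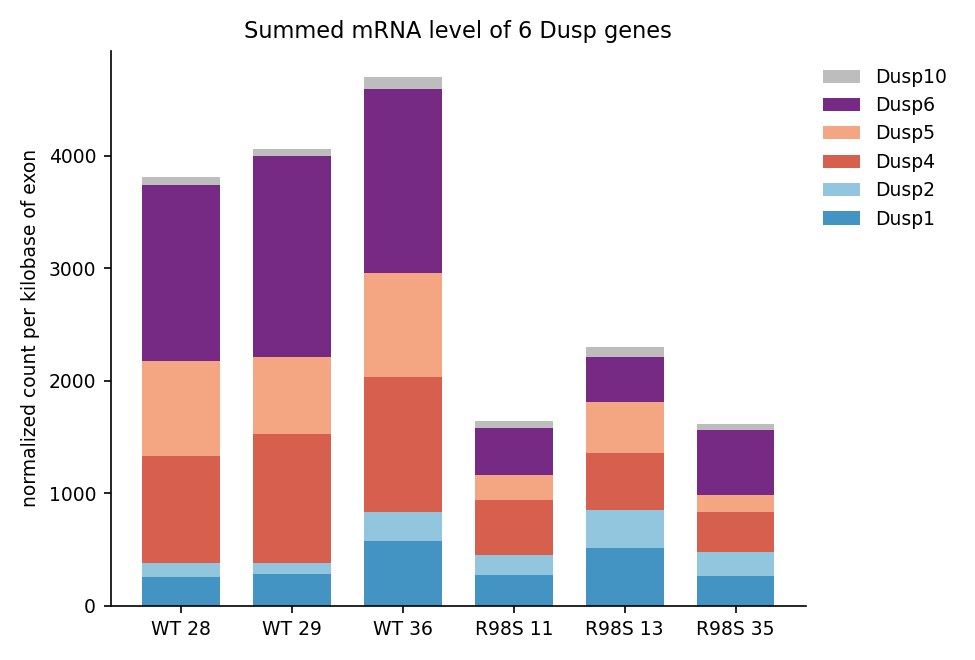
Normalized count per kilobase of exon (vertical axis) of 6 Dusp genes, stacked for each of the 6 clones. The stacks reached between 3812 and 4697 in WT and between 1613 and 2303 in R98S clones, and the Dusp6, Dusp5 and Dusp4 layers were thinner in every R98S clone than in any WT clone.

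The median log2 SD of the 9 genes was 0.23 between WT clones and 0.36 between R98S clones, against 0.16 and 0.20 over all genes tested. For Dusp1, Dusp2, Dusp4, Dusp5, Dusp10 and Spry2, that is 6 of 9 genes or 66.7%, WT clone 36 was the highest WT clone and R98S clone 13 the highest R98S clone. The same held for 10 of 21 ERK-responsive genes tested (47.6%), namely Egr2, Fosb, Fosl1, Fosl2, Ier2, Ier3, Jun, Junb, Mcl1 and Phlda1, and for 14.7% of all genes tested. Btg2, an antiproliferative partner of the mRNA deadenylation machinery that was picked after its values were seen, had 403.5, 391.2 and 1751 normalized counts in WT and 856.6, 1861 and 801.2 in R98S clones. Dusp6 and Spred1 had their highest level in WT clone 29 and R98S clone 35 instead. This pattern was noticed in the data and is given as a description.

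**Figure D4:**
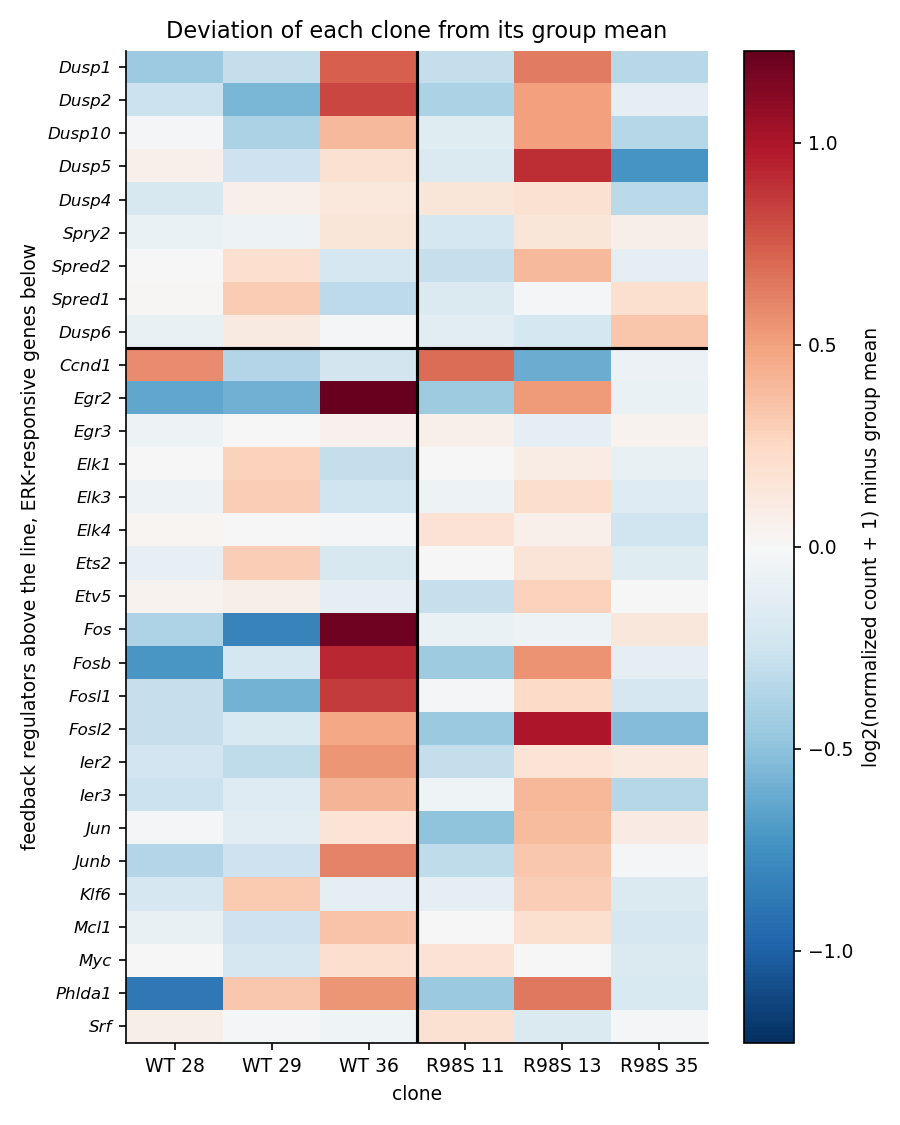
Deviation of log2(normalized count + 1) in each clone from the mean of its group (colour scale, red above and blue below) for the 9 feedback regulators and 21 ERK-responsive genes. The columns of WT clone 36 and R98S clone 13 are red for most immediate early genes and for Dusp1, Dusp2 and Dusp10, whereas Dusp6 is pale in the WT clones and highest in R98S clone 35.

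The rest of the pathway was read from lists, each to be set beside 13.1% of all genes tested called lower and 10.7% called higher by limma. These lists held 142 genes, of which 117 were tested, 26 called lower and 10 called higher, with a median of -0.13 on the log2 scale. Fewer were called without WT clone 28 (23 genes in all), WT clone 29 (23) or R98S clone 11 (22). Without both WT clone 36 and R98S clone 13, 38 genes of the lists were called lower and 13 higher. Of all genes tested in that fit, 17.7% were called lower and 13.8% higher. These lists include the 7 relatives, of which 4 were tested and 2, Dusp7 and Spred3, were called lower (1 without WT clone 28, WT clone 29 or R98S clone 35, and 3 without both WT clone 36 and R98S clone 13), with 0 called higher by limma, edgeR or DESeq2 and 0 higher at an unadjusted p under 0.05. Of the other protein phosphatases of MAP kinases, 1 of 8 tested was called, Ptpn7, a haematopoietic tyrosine phosphatase of ERK, at 4105 ± 408 normalized counts in WT and 5204 ± 433 in R98S (SD, n = 3, log2 fold change 0.34, limma adjusted p = 0.0821). That call held in 1 of 6 fits with a clone left out, the one without R98S clone 13. It was lost with the deviation of its neighbours, whose median change was 0.30, subtracted (log2 fold change 0.056, limma adjusted p = 0.761). The other 7 tested genes of this list were not called, and its median was 0.029. Without both WT clone 36 and R98S clone 13, 0 genes of this list were called higher by limma and 2 lower.

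Upstream of RAS, 4 of 16 tested receptor and adaptor genes were called higher and 2 lower (3 called in all without WT clone 28, and 3 higher and 2 lower without both WT clone 36 and R98S clone 13), and the list median was 0.0024 on the log2 scale. Cblb, a ubiquitin ligase that dampens receptor signalling, rose from 679.3 ± 93.7 to 1182 ± 245 normalized counts (log2 fold change 0.79, limma adjusted p = 0.027). Shc1, an adaptor that links receptors to RAS, fell from 2945 ± 198 to 1860.1 ± 191 (-0.67, limma adjusted p = 0.0108). The docking protein Gab1 rose from 65.9 ± 12.4 to 148.6 ± 72 (1.08, limma adjusted p = 0.0667), a call kept in 2 of 6 fits with a clone left out (lost without WT clone 28, 29 or 36 or R98S clone 11). The signalling subunits of the interleukin-3 receptor, Csf2rb2 (0.62, limma adjusted p = 0.0178) and Csf2rb (0.53, limma adjusted p = 0.0509), were also higher, but they are near-identical copies whose reads may be divided unevenly, and they were picked after their values were seen. The call of Csf2rb was kept in 3 of 6 fits with a clone left out (lost without WT clone 28 or 36 or R98S clone 11).

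Among RAS proteins, their exchange factors and their GTPase activators, 3 of 18 tested genes were called higher and 5 lower (3 and 7 without both WT clone 36 and R98S clone 13), and the list median was -0.17. Rasgrp4, an exchange factor of myeloid and mast cells, fell from 231.7 ± 75.9 to 42.4 ± 17.9 normalized counts (SD, n = 3, log2 fold change -2.46, limma adjusted p = 0.00643). Rasgrp2, which acts mainly on RAP1, went from 972.8 ± 395 to 401.2 ± 179 (-1.28, limma adjusted p = 0.0533), a call kept in 2 of 6 fits with a clone left out (lost without WT clone 28 or 36 or R98S clone 11 or 35). Rasa1, a GTPase activator that turns RAS off, fell from 2418 ± 676 to 1084 ± 322 (-1.17, limma adjusted p = 0.0248).

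Of the RAF, MEK and ERK kinases and their scaffolds, 4 of 15 tested were called lower, with a median of -0.16, and 0 higher by limma (1 at an unadjusted p under 0.05, 0 by edgeR and 0 by DESeq2). The count was 1 without WT clone 28, WT clone 29 or R98S clone 11 and 2 without R98S clone 35, and without both WT clone 36 and R98S clone 13 there were 5 called lower and 1 higher. Map3k8, a MEK kinase also known as TPL2, fell from 72.3 ± 31 to 20.6 ± 3.54 normalized counts (SD, n = 3, log2 fold change -1.70, limma adjusted p = 0.0191). Map2k1, which encodes MEK1, fell from 5891 ± 451 to 4057 ± 750 (-0.55, limma adjusted p = 0.0402), and the RAF scaffold Shoc2 from 4319.8 ± 690 to 3268 ± 108 (-0.39, limma adjusted p = 0.0824). The call was kept in all 6 fits with a clone left out for Map3k8, in 3 for Map2k1 (lost without WT clone 28 or 29 or R98S clone 11) and in 1 for Shoc2 (without WT clone 36). The call of Map2k1 was also lost with the deviation of its neighbours subtracted (-0.44, limma adjusted p = 0.137). Mapk3, which encodes the kinase ERK1 and was picked after its values were seen, differed by -0.24 on the log2 scale (R98S minus WT, limma adjusted p = 0.296). With the deviation of its neighbours, whose median change was 0.25, subtracted, Mapk3 passed the threshold (-0.51, limma adjusted p = 0.0624). None of 6 ERK effector kinase genes was called by limma, edgeR or DESeq2, and 0 had an unadjusted p under 0.05, though 1 was called without WT clone 36, alone or together with R98S clone 13.

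**Figure D5:**
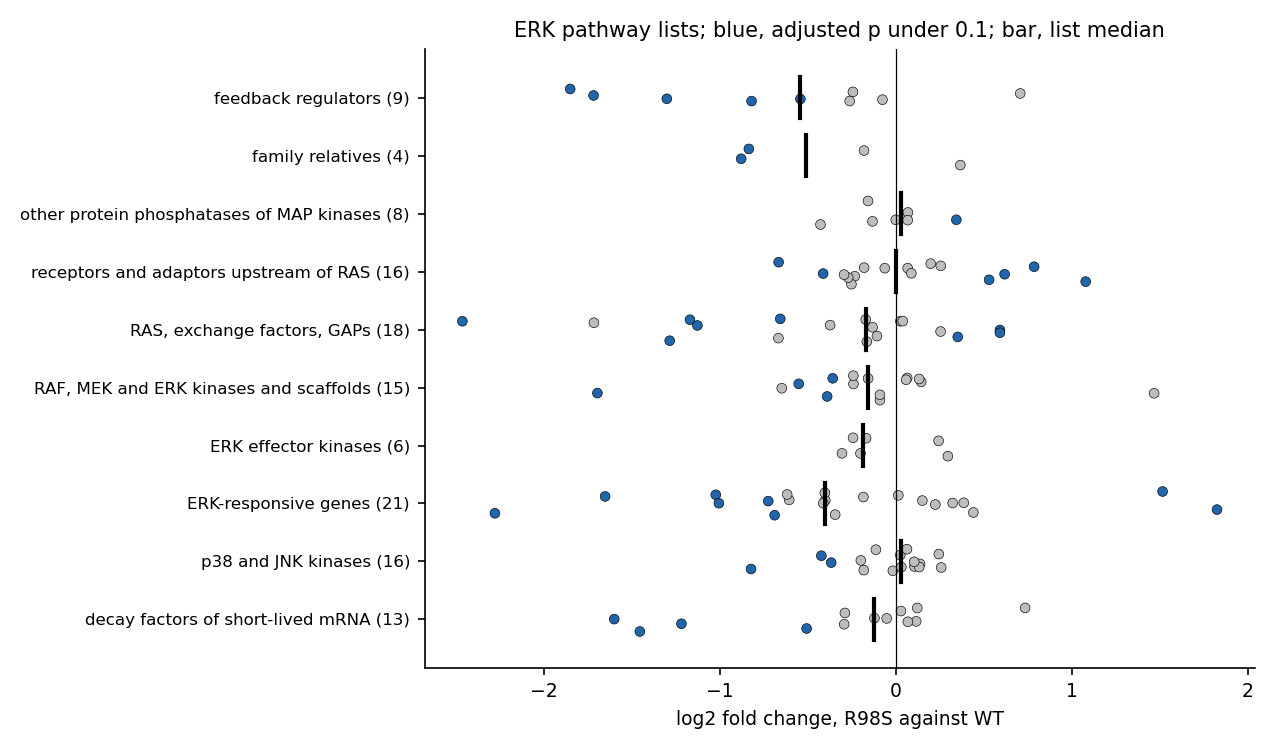
Log2 fold change of R98S against WT cells (horizontal axis) for every tested gene of the feedback regulators, their relatives and 8 further lists, with the number tested in parentheses, the list median as a black bar and genes with a limma adjusted p under 0.1 in blue. The medians of the feedback regulators (-0.54), their relatives (-0.51) and the ERK-responsive genes (-0.40) lay furthest below 0.

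Transcription factors and other genes that respond to ERK moved in both directions: 6 of 21 tested were called lower and 2 higher. The list median was -0.40, and 5 were called in all without R98S clone 11. Without both WT clone 36 and R98S clone 13, limma called 10 lower and 4 higher, beside 17.7% and 13.8% of all genes tested in that fit. Of the 2 called higher, Ccnd1, picked after its values were seen, had 7.55 ± 3.23 normalized counts in WT and 24.1 ± 11.4 in R98S clones. Its WT mean alone was under the filter of 10, which Ccnd1 passed through the R98S clones. The call of Ccnd1 (limma adjusted p = 0.0682) was kept in 2 of 6 fits with a clone left out. Egr3, an immediate early zinc finger factor, fell from 47.1 ± 1.99 to 8.93 ± 0.668 normalized counts (SD, n = 3, log2 fold change -2.28, limma adjusted p = 0.0037). It had 44, 44 and 49 reads in WT and 10, 8 and 10 in R98S clones. Its R98S mean alone was under the filter of 10, which Egr3 passed through the WT clones. Elk3, an ETS factor that ERK phosphorylates, fell from 3140.3 ± 625 to 992.2 ± 138 (-1.65, limma adjusted p = 0.00109), and Jun rose from 203.9 ± 22.5 to 744.9 ± 218 (1.83, limma adjusted p = 0.00324). Etv5, Klf6 and Junb, picked after their values were seen, fell by 0.69, 1.01 and 1.02 on the log2 scale (limma adjusted p = 0.0241, 0.0115 and 0.0382), the last of these not called without R98S clone 11. The call of Junb was also lost with the deviation of its neighbours, whose median change was -0.45, subtracted (-0.62, limma adjusted p = 0.143). Fos had 350.2, 256.8 and 1042 normalized counts in WT and 561.1, 570.5 and 655 in R98S clones (log2 fold change 0.39, limma adjusted p = 0.589), and without WT clone 36 it was higher by 0.98 (limma adjusted p = 0.0208). Egr1 was under the filter, with between 10 and 12 reads in WT and 4 or 5 in R98S clones.

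The stress kinases p38 and JNK, which share several of these phosphatases, had 3 of 16 tested genes called lower, with a median of 0.028, and none called higher by limma (1 at an unadjusted p under 0.05, 1 by edgeR and 1 by DESeq2). No gene of this list was called without WT clone 28, WT clone 29 or R98S clone 11, and 1 was without R98S clone 35, while 3 were called lower and 1 higher without both WT clone 36 and R98S clone 13. The genes called were the JNK and p38 pathway kinase Map3k5 (log2 fold change -0.82, limma adjusted p = 0.0343), Mapk9, which encodes JNK2 (-0.42, limma adjusted p = 0.0607), and its activator Map2k7 (-0.37, limma adjusted p = 0.0897), whose call was lost with the deviation of its neighbours subtracted (-0.22, limma adjusted p = 0.138). Factors that degrade short-lived mRNA were also examined, since many feedback mRNAs are among their substrates. Of these, 4 of 13 were called lower, with a median of -0.12, and 0 higher (limma, edgeR and DESeq2, with 0 at an unadjusted p under 0.05), and 5 lower and 1 higher without both WT clone 36 and R98S clone 13. Btg1 fell from 1201 ± 171 to 401.9 ± 106 normalized counts (SD, n = 3, log2 fold change -1.60, limma adjusted p = 0.00326), the endonuclease gene Zc3h12a from 358.9 ± 37.9 to 132.6 ± 32.5 (-1.45, limma adjusted p = 0.00636), and Zfp36l2, which binds AU-rich elements, from 14880 ± 3074 to 6366 ± 1052 (-1.22, limma adjusted p = 0.00567).

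Genes with the pattern most like Dusp6 and Spry2 were found among 9504 genes as those with the smallest root mean square difference, over the 6 libraries, of log2(normalized count + 1) centred on each gene's mean. For Dusp6 these were Gpr97, an adhesion G protein-coupled receptor, with a difference of 0.184, the chromatin factor Arid5b (0.197) and Lmna, which encodes lamin A and C (0.222), while the median over all genes compared was 0.95. Gpr97 had 1121, 943.5 and 1102 normalized counts in WT and 274.9, 271.5 and 470 in R98S clones, so that R98S clone 35 was the highest of its group as it was for Dusp6. Among WT clones Gpr97 was lowest in clone 29, where Dusp6 was highest. Arid5b was highest in WT clone 29 (434.2) and R98S clone 35 (130.5), as Dusp6 was. Lmna was lowest in R98S clone 35 (690.2, against 751.5 and 746.1 in R98S clones 11 and 13). For Spry2 the nearest were the lysosomal gene Cln6 (0.0764), the haematopoietic transcription factor Gata2 (0.0843) and Snx25 (0.0905), against a median of 0.466. Genes picked for the smallest difference lie under the median by selection, so the medians give scale only and are no test. Gata2 had 27510, 24872 and 29516 normalized counts in WT and 13577, 17337 and 14403 in R98S clones.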

How the data were processed

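Messenger RNA of 6 Ba/F3 clones was analysed, 3 WT and 3 R98S, grouped by their labels. The authors removed reads of ribosomal and transfer RNA with Bowtie2, aligned the rest to the mouse genome (mm10, GRCm38) and its spliced transcripts with TopHat, kept primary alignments above a mapping quality limit, and counted exon reads per gene, with SAMtools and HTSeq named in the submitters' processing notes. What was deposited is a signal: the reads of a gene, scaled by the authors with a DESeq2 size factor per library. Genes are given by symbol. The mapping filter lowers genes with near-identical copies. After division by what 1 read is worth in its library, 100% of the non-zero values came out whole (tolerance 1e-06 reads), so that reads could be recovered. In WT clone 36 that worth was nearly 1, which rounded values would also give.

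The test was limma 3.58.1 in R 4.3.3, applied with an intensity trend to log2(normalized count + 1) of the 11550 genes with a mean of at least 10, two-sided, with Benjamini-Hochberg adjustment and a threshold of 0.1. Of these genes, 1241 were called higher and 1514 lower. On the recovered reads edgeR (version 4.0.16, quasi-likelihood, TMM) called 2746 genes and DESeq2 (version 1.42.0) 3105. Fold changes on this log scale understate those of weakly expressed genes. Depth and floors cover counting error only. The fit was tested on simulated data. Positions and exon lengths are from GENCODE (GRCm38) and promoters from RefSeq (GRCm38.p6). Protein sequences were not used here.

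The genes, lists and tests were chosen with earlier results of these data known. Named are the 10 feedback genes and their 7 relatives, up to 3 called genes with the largest change per list, Fos, Egr1, Rpl10, and the 3 genes nearest in pattern to the most changed Dusp gene and the most changed Spry or Spred gene. Other genes given with values, apart from cell type markers, were picked after their values were seen. The alternatives were other pseudocounts, filters, scalings, count tests and thresholds, a fit without trend, leaving out each clone, and removing the shift of neighbouring genes. Values of some single genes in the marker and kinase lists are not reported here.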

Additional observations from a re-analysis of the deposited data

How the results depend on the processing

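Among 18 alternatives the number of feedback genes called was between 4 and 7, and the number called lower between 4 and 6. The log2 fold change of Dusp6 stayed between -2.02 and -1.74, that of Dusp5 between -2.17 and -1.36, that of Dusp4 between -1.40 and -0.97 and that of Spry2 between -1.02 and -0.71, each with its call kept in all of them. The number called higher was 0 except for 1, Dusp2, without WT clone 36 and without both WT clone 36 and R98S clone 13, the latter alternative being chosen after seeing the data. Of 252 values of single genes under an alternative, 231 kept their direction and side of the threshold, 9 lost the call, 7 gained it and 5 changed sign. With a clone left out, Dusp1 was between -0.39 and 0.29 (positive without WT clone 36, R98S clone 11, at 0.070, or R98S clone 35, at 0.096), Dusp16 between -0.53 and 0.13 (positive without WT clone 29), and Fos between -0.024 (without WT clone 29) and 0.98 (without WT clone 36, with a call). The cause of these changes was not tested. Genes of the pathway lists called in all numbered between 22 and 39 when a clone was left out, those lower between 17 and 28 and those higher between 5 and 11, and 5 were called higher at an adjusted p under 0.05. These fits hold fewer samples. Over all genes, between 1327 (without WT clone 28) and 3219 (without R98S clone 13) were called when 1 clone was left out, and 3621 without both WT clone 36 and R98S clone 13. The median log2 fold change of all genes stayed within 0.1 of 0 under each scaling. No paired analysis was possible because the clone numbers of the 2 groups differ. Depth limits what can be said of Spry1, Spry3, Dusp8 and Dusp9, which lie at or under the floor.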
